A study of Mus musculus with 20 samples.

Results

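Bone marrow neutrophils that lack Bmal1 were compared with and without imiquimod (IMQ). The comparison used 10 of the 20 RNA-seq libraries of the series, 5 from untreated and 5 from IMQ-treated Bmal1 Mye-/- mice, chosen by their labels alone, and every gene of their count files. In both groups the Bmal1 gene, listed in the files as Arntl, carried loxP sites and Cre was inserted at Lyz2, so that deletion was driven in neutrophils, monocytes and macrophages. All mice were female. Treated mice were 8 to 10 weeks old at the start and received a cream with 5% IMQ on the ears 3 times per week for 6 weeks. The age of the untreated mice was not given in the sources used here. Neutrophils were taken from femurs and tibias by magnetic depletion of other cells. The remaining 10 libraries, from untreated and IMQ-treated WT mice (C57BL/6J, bought from a supplier and without Cre), entered the fit for a shared estimate of the spread and for one comparison. The samples were numbered 1 to 5 in each group, and the labels did not state whether each came from a separate mouse, so p-values measure the spread between these samples.

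Imiquimod is a ligand of Toll-like receptor 7, an endosomal sensor of single-stranded RNA, and its repeated application to skin is used as a model of lupus. Neutrophils are made in the marrow from dividing precursors. These precursors first make primary granule proteins such as myeloperoxidase, then secondary and tertiary granule proteins such as lactoferrin, and the cells stop dividing before they mature and leave for the blood. BMAL1 is the transcription factor that, with CLOCK, drives the circadian loop.

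Before the treatment effect, the libraries were checked. Counts assigned to genes ranged from 30782166 to 92613500 in the untreated group, with a median of 66065470, and from 41955911 to 82633516 in the IMQ group, with a median of 55916009. Lyz2, the site of the Cre insertion, averaged 135 CPM (counts scaled to the effective library size) in untreated Bmal1 Mye-/- libraries against 11408 CPM in untreated WT libraries, and 98.4 against 8059 CPM after IMQ. Arntl lay at 0.468 to 1.10 CPM in untreated and 0.337 to 1.52 CPM in IMQ-treated Bmal1 Mye-/- libraries, so the groups overlapped, and IMQ minus untreated was -0.03 ± 0.39 on the log2 scale (SE, adjusted p = 0.961). The gene-level count of Arntl includes exons outside the floxed part and does not test the deletion. The 10 neutrophil marker genes in the files summed to 120378 to 141779 CPM in untreated libraries and to 70895 to 145023 CPM in IMQ libraries. The lowest sum was that of IMQ library 1, the same library that held the highest sum of monocyte markers, 2376 CPM against 769 to 986 CPM in untreated libraries and 647 to 1258 CPM in the other IMQ libraries.

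**Figure D1:**
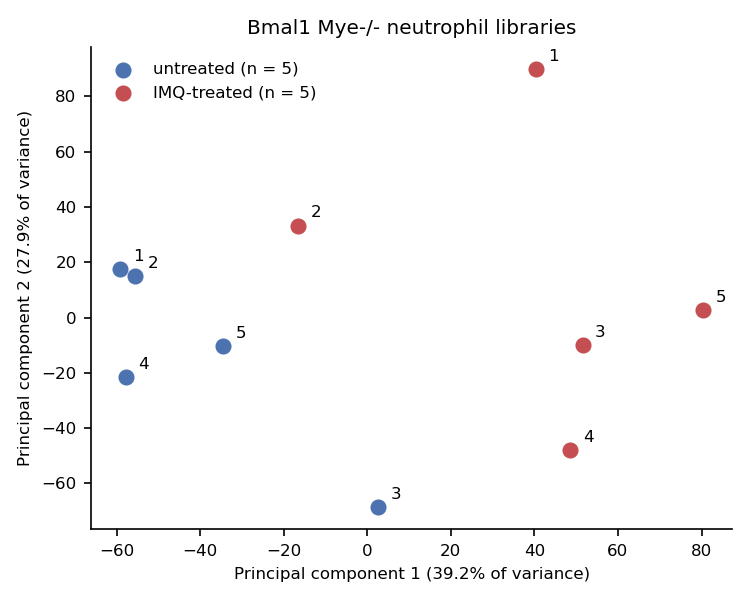
Principal components 1 and 2 of log2 CPM over the genes tested, for the 10 Bmal1 Mye-/- libraries; each point is a library, numbered within its group. Untreated libraries lay between -59.1 and 2.58 on the first component and IMQ libraries between -16.5 and 80.3, with untreated library 3 inside the IMQ range and IMQ library 1 apart at 90.0 on the second component.

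Among the 10 libraries, the first principal component held 39.2% and the second 27.9% of the variance. The groups overlapped on the first component, because untreated library 3 lay at 2.58 and IMQ library 2 at -16.5. IMQ library 1 and untreated library 3 lay at opposite ends of the second component, at 90.0 and -68.6. For many of the results the value without a single library is given beside it. Here a fit without 1 library means 1 of the 10 edgeR fits that each left out 1 Bmal1 Mye-/- library.

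Imiquimod was followed by broad changes. Of 14030 genes tested, 2024 were higher and 1268 lower in IMQ-treated Bmal1 Mye-/- neutrophils by edgeR's quasi-likelihood test at an adjusted p of 0.05, which is 14.4% and 9.04% of genes and 23.5% in both directions. At least a 2-fold change was seen in 872 of the higher and 555 of the lower genes. The 5 IMQ values and the 5 untreated values did not overlap for 2819 genes, 20.1% of those tested. The median log2 difference over all genes was 0.02. Counts of called genes depended on single libraries: they fell to 1007 higher and 605 lower without untreated library 4, and to 1156 and 609 without IMQ library 5, and rose to 2576 and 1461 without IMQ library 2. No call of the full fit took the opposite sign in any of these fits.

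**Figure D2:**
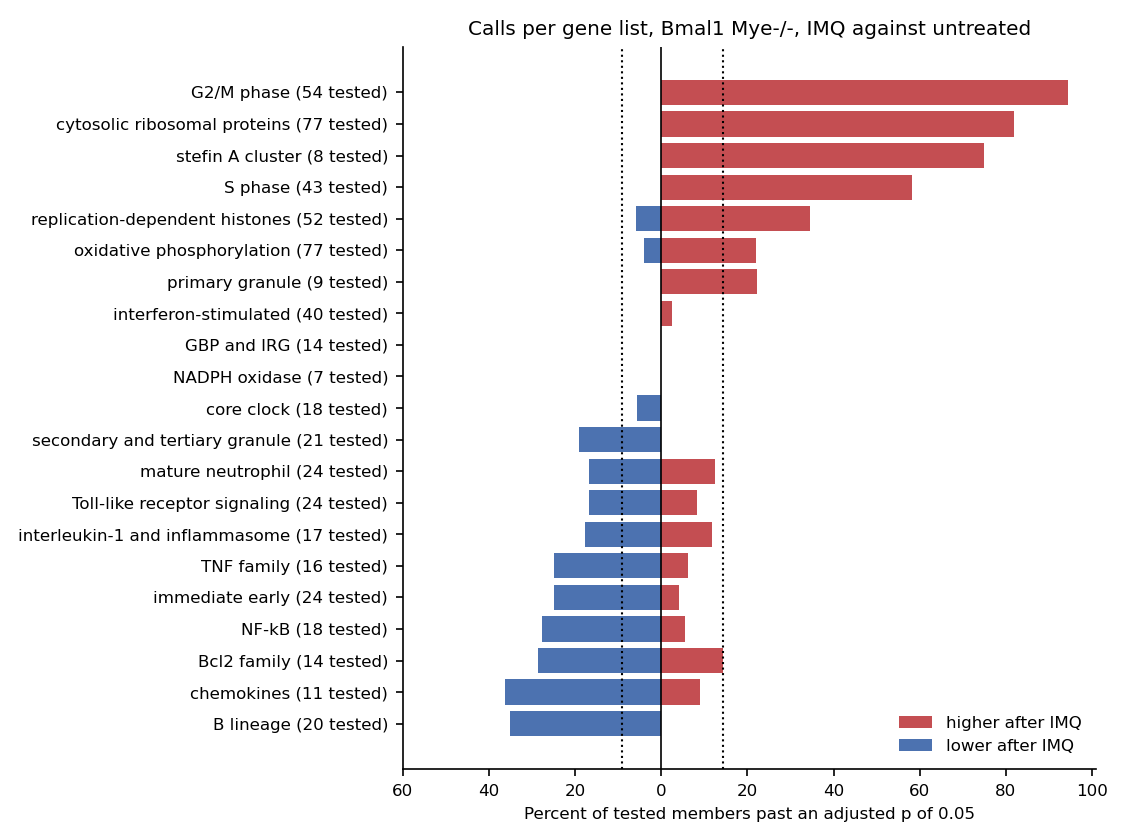
Share of the tested members of 21 gene lists that were higher (right, red) or lower (left, blue) after IMQ in Bmal1 Mye-/- neutrophils, in percent, at an adjusted p of 0.05; dotted lines mark the shares over all genes, 14.4% higher and 9.04% lower. Cell cycle, ribosomal protein and stefin A lists lay far to the right of the line, and no member of the G2/M, S phase, ribosomal or stefin A list was lower.

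Nearly all genes of cell division on the list examined were higher. Of 54 genes of the G2 and M phases, 51 were higher and none was lower, with a median log2 difference of 1.72, against 14.4% of all genes higher and a median of 0.02. In 50 of the 51, every IMQ library lay above every untreated library, as in 1324 of all 2024 genes called higher. Of all genes tested, called or not, 20.1% had groups that did not overlap. The 3 G2/M members that did not pass were Cks2 (0.40), Hjurp (-0.09) and Lbr (0.02).

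Mki67, the gene of the Ki-67 proliferation antigen (chr7:135689784-135716361, minus strand, mm10), measured 227, 220, 250, 143 and 239 CPM in untreated libraries 1 to 5 and 876, 447, 675, 513 and 1038 CPM in IMQ libraries 1 to 5. The groups were separate, and the difference was 1.72 ± 0.33 on the log2 scale (SE, adjusted p = 0.00526, edgeR). Top2a, the topoisomerase that untangles sister chromatids, measured 64.5 to 126 CPM untreated and 260 to 637 CPM after IMQ, a log2 difference of 1.99 ± 0.38 (adjusted p = 0.00526, edgeR). Untreated library 4 held the lowest value of both genes and IMQ libraries 1 and 5 the highest. Cenpe, a kinetochore motor, rose by 2.08 ± 0.38 and Nusap1, a spindle protein, by 2.08 ± 0.40. Reads of Nusap1 may be shared with Oip5, which overlaps it in the annotation. Ndc80, a kinetochore subunit, and Melk, a mitotic kinase, were among the 15 largest increases at 2.32 and 2.12.

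Of 43 S phase genes, 25 were higher and none lower, with a median of 0.98, against 14.4% of all genes higher. Atad2 rose by 1.47 and E2f8, a repressor of E2F targets, by 1.28. Rrm2, which makes deoxyribonucleotides, rose by 1.53. This list depended more on single libraries than the G2/M list, since 7 members stayed higher without untreated library 4, 8 without IMQ library 5 and 10 without IMQ library 1, while the G2/M count was 50 to 52 in the 10 fits that each left out 1 library. With the replicate number as a block the S phase count was 33 and the G2/M count 51. Cdkn1a, the p21 inhibitor of cyclin-dependent kinases, also rose, by 2.09 ± 0.48.

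Promoters of the cell division genes are shown because their members moved together. The windows are from the RefSeq table of build GRCm38.p6, and the 250 bases before 1 listed start site per gene were searched on both strands. Genes of late cell cycle are known to carry the CHR element, searched as TTTGAA or TTCGAA, and the CCAAT box, searched as CCAAT. In capitals are these matches in the 4 G2/M members with the smallest p-values that held both.
Gas2l3 (chr10:89443968-89444004, minus strand): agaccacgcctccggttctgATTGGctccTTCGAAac
Ckap5 (chr2:91526697-91526751, plus strand): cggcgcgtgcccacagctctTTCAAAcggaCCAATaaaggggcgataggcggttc
Mki67 (chr7:135716452-135716587, minus strand): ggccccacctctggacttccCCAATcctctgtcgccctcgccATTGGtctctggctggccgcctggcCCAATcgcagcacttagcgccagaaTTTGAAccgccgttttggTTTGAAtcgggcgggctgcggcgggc
Top2a (chr11:99024190-99024436, minus strand): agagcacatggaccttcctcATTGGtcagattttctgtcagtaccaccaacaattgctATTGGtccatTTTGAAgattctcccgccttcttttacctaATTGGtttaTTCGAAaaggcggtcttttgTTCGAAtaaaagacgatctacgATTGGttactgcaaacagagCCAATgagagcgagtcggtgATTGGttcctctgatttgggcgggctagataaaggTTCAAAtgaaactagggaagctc
A CHR match lay in 20 of the 48 G2/M genes with a window (41.7%), against 12.7% of the 11087 tested genes with a window, and a CCAAT match in 37 of 48 (77.1%) against 36.6%. Among the 31 S phase genes with a window, 9 (29.0%) held an E2F match, searched as TTTCCCGC, TTTGGCGC or TTTCGCGC, against 3.01% of all. The E2F matches of 2 S phase genes that rose are in capitals, and those of Mcm5 overlap each other.
Hells (chr19:38930908-38930955, plus strand): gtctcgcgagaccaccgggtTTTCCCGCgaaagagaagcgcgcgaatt
Mcm5 (chr8:75109336-75109387, plus strand): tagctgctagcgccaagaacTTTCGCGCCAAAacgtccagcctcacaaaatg
Hells, a chromatin remodeller, rose by 1.29 and Mcm5, a subunit of the replicative helicase, by 1.14. A match describes the letters in the window and is not a measured binding site.

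Replication-dependent histone genes, which supply new chromatin in S phase, had 18 of 52 tested members higher and 3 lower, with a median of 1.57. This is 40.4% called, against 23.5% of all genes. Their summed level went the other way, from 169 to 332 CPM in untreated libraries to 129 to 165 CPM in IMQ libraries, without overlap. Hist1h2bg rose from a mean of 1.31 to 6.05 CPM. The 3 lower members were Hist1h2bc, which fell by 1.52, Hist1h2be, which fell by 1.09, and Hist1h1c, which fell by 1.14. The libraries were made from poly(A)+ RNA, which most of these histone mRNAs lack, and near-identical histone copies share reads that the counting set aside, so these levels are uncertain. The number higher was 4 without untreated library 4, 6 without IMQ library 1 and 8 without IMQ library 5, while 3 members were lower in each of these fits.

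Genes of the ribosome were also higher. Of 77 cytosolic ribosomal protein genes, 63 were higher and none lower, with a median of 0.74, against 14.4% of all genes higher. In all 63 the groups did not overlap, as in 1324 of all 2024 genes called higher. Of all genes tested, called or not, 20.1% did not overlap. Rpl19 measured 60.4, 57.1, 54.3, 58.5 and 58.3 CPM in untreated libraries and 141, 92.7, 96.0, 84.7 and 109 CPM in IMQ libraries. Its log2 difference was 0.86 ± 0.20 (adjusted p = 0.0082, edgeR). Untreated values were tight and IMQ library 1 was the highest. Rps24 rose by 0.95 ± 0.20. Rps27 was the lowest of the 14 members that did not pass, at -0.48. Without IMQ library 1 the count was 39, without untreated library 4 it was 40, and with IMQ library 1 and untreated library 3 both left out it was 24.

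Oxidative phosphorylation genes gave 17 higher and 3 lower of 77 tested, with a median of 0.26. This is 26.0% called, near the 23.5% of all genes. Ndufa11, a subunit of complex I, rose by 0.93, while Ndufa13, Sdhd and Ndufa7 fell by 0.35, 0.28 and 0.28. The number higher was 3 without IMQ library 5, 5 without untreated library 4 and 8 without IMQ library 1. Of 21 glycolysis genes tested, 3 were higher, 1 was lower and 17 were not called, with a median of 0.08. This is a smaller share called than the 23.5% of all genes. Pfkp and Pfkl, isoforms of phosphofructokinase, rose by 0.76 and 0.81 and Tpi1 by 0.65, while Slc16a3, a lactate exporter, fell by 0.63. The calls of Tpi1 and Slc16a3 were lost in 5 and 7 of the 10 fits without 1 library.

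**Figure D3:**
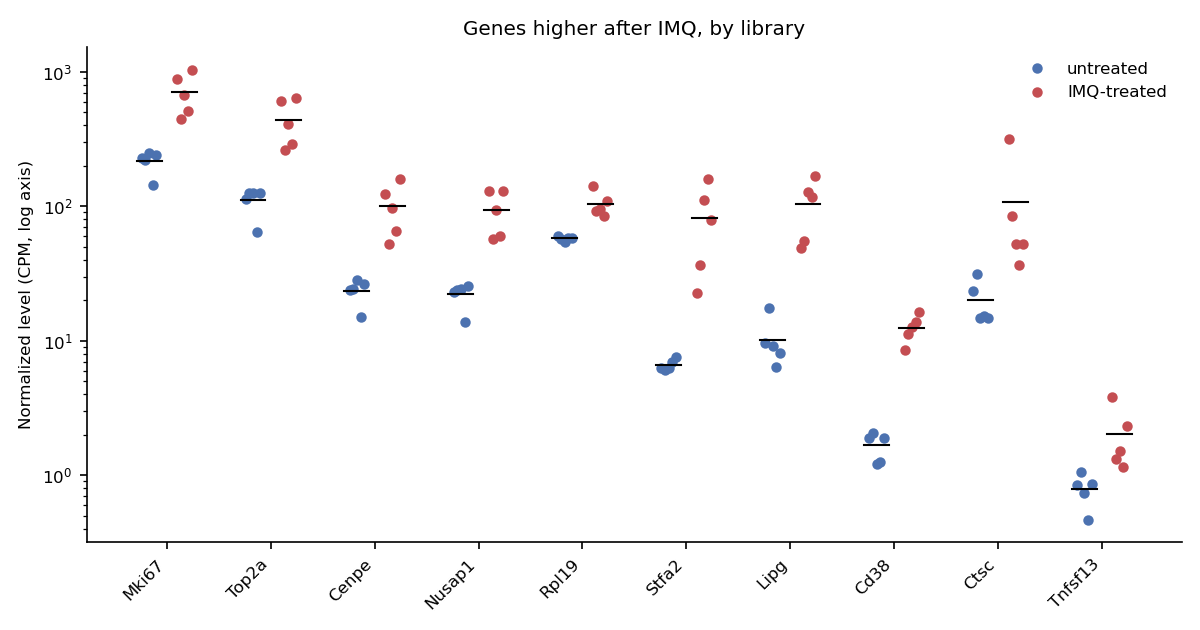
CPM of 10 genes that were higher after IMQ, on a log axis; each point is 1 of 5 libraries a group and each black line a mean. The groups did not overlap for any of the 10 genes, from Tnfsf13 at 0.468 to 3.80 CPM to Mki67 at 143 to 1038 CPM.

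Genes of stefin A inhibitors and some acute-phase genes were higher. Stefin A genes encode inhibitors of cysteine cathepsins. Of 8 tested members, 6 were higher and none lower, with a median of 1.77, against 14.4% of all genes higher. Stfa2 measured 6.27, 6.11, 6.26, 6.98 and 7.56 CPM untreated and 22.6, 36.9, 111, 159 and 79.5 CPM after IMQ. The untreated libraries were nearly equal and the IMQ libraries spread widely, with library 1 the lowest, and the difference was 3.62 ± 0.66 (adjusted p = 0.0046, edgeR). BC100530 rose by 2.68, BC117090 by 2.85, Stfa1 and Stfa3 by 1.77 each and Stfa2l1 by 1.04. These genes are near-identical copies, and reads that fit several of them were set aside in the counting, so the values of single members are uncertain. Of 9 acute-phase genes tested, 3 were higher and none lower, which is 33.3% called against 23.5% of all genes. The list median was -0.21, and 5 of the 9 were fitted lower. Saa3, serum amyloid A3, measured 0 to 0.153 CPM untreated and 2.75, 0.828, 0.479, 2.23 and 17.5 CPM in IMQ libraries 1 to 5, a log2 difference of 5.78 ± 1.10. Library 5 alone held most of this signal, but every IMQ library lay above every untreated one. Orm1, an acid glycoprotein, rose by 1.58 and Lrg1 by 0.67. The Lrg1 call was lost with the replicate number as a block (0.59, adjusted p = 0.0606, edgeR). Serpina3n, a serine protease inhibitor, rose by 4.13 from a mean of 0.0231 CPM, a call lost without IMQ library 5 (adjusted p = 0.093, edgeR).

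Among genes with a mean of at least 5 CPM, several of the 15 largest increases encode enzymes and surface proteins. Lipg, endothelial lipase, measured 6.42 to 17.6 CPM untreated and 49.0 to 169 CPM after IMQ, a log2 difference of 3.34 ± 0.51. Cd38, a NAD-consuming surface enzyme, measured 1.89, 2.07, 1.21, 1.25 and 1.90 CPM untreated and 8.56, 11.2, 12.7, 13.7 and 16.3 CPM after IMQ, a log2 difference of 2.90 ± 0.53 (adjusted p = 0.00466, edgeR). Both groups were compact and separate. Eps8, an actin regulator, rose by 2.61, Fam20c, a kinase of secreted proteins, by 2.37 and Hpse, heparanase, by 2.19. Camk2d, Phf19 and H1f0 rose by 2.22, 2.38 and 2.57.

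A further set of increases was largest in IMQ library 1. The markers of monocytes, 7 genes, had 4 higher and none lower, namely Ccr2, Ms4a6c, F13a1 and Irf8. Over all genes 14.4% were higher. Ccr2, a receptor for monocyte chemokines, measured 28.4, 43.0, 18.9, 19.9 and 16.8 CPM untreated and 416, 106, 35.8, 43.0 and 25.4 CPM after IMQ. The groups overlapped and libraries 1 and 2 were high. Without IMQ library 1, 1 of the 7 stayed higher, the log2 difference of Ccr2 went from 2.30 to 1.06 and its adjusted p was 0.0458 (edgeR). The call of Irf8 was lost with the replicate block (0.87, adjusted p = 0.0932, edgeR). Csf1r, another of these markers, was at -1.03 (adjusted p = 0.167). Vcan, the matrix proteoglycan versican, measured 2.64 to 5.95 CPM untreated and 136, 39.8, 6.32, 28.3 and 16.5 CPM after IMQ. Its log2 difference was 3.57, and 2.58 without library 1. Ctsc, the cathepsin that activates granule proteases, measured 14.9 to 31.2 CPM untreated and 36.4 to 313 CPM after IMQ, and its log2 difference went from 2.43 to 1.51 without library 1. Trem2, a lipid receptor, was at 2.43 with and 1.17 without that library. S100a4 and S100a10, at 1.93 and 2.01, lost their calls without it (0.82 and 0.85). In bulk samples, fewer cells of a type and less RNA per cell cannot be told apart, nor can more cells and more RNA per cell. The part of monocytes in these increases was not tested.

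In the TNF family, which includes survival factors of B cells and plasma cells, 1 of 16 genes was higher and 4 were lower. This is 31.25% called, against 23.5% of all genes. Tnfsf13, which encodes April, measured 0.848, 1.06, 0.740, 0.468 and 0.861 CPM untreated and 3.80, 1.31, 1.51, 1.16 and 2.33 CPM after IMQ. The groups did not overlap and the difference was 1.34 ± 0.41 (adjusted p = 0.0283, edgeR), but the call was lost in 4 of the 10 fits that left out 1 library, with adjusted p up to 0.0867. At chr11:69682846-69685784 (minus strand, mm10), Tnfsf13 overlaps Tnfsf13os and Tnfsfm13, so part of its reads may belong to them. Tnfsf13b, which encodes Baff, measured 84.1, 90.9, 92.1, 92.9 and 84.5 CPM untreated and 29.9, 57.9, 39.8, 49.3 and 14.9 CPM after IMQ. It fell by 1.21 ± 0.42 (adjusted p = 0.0433, edgeR), with separate groups, and 8 of the 10 such fits lost the call. The other lower members were Tnfsf14, Fas and Tnfrsf1b, and the calls of Fas and Tnfrsf1b were lost in 8 and 7 of those fits. The number lower was 1 without untreated library 4 or IMQ library 5, 2 without IMQ library 1 and 6 with the replicate block.

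Among genes with a mean of at least 5 CPM and no overlap, the largest decrease was that of Thbs1, thrombospondin 1, a secreted matrix glycoprotein (chr2:118111876-118127133, plus strand, mm10). It measured 1362, 1349, 1213, 2659 and 1466 CPM in untreated libraries and 62.3, 29.0, 21.9, 20.8 and 7.22 CPM in IMQ libraries. No IMQ library came near an untreated one, and the log2 difference was -5.83 ± 1.11 (adjusted p = 0.00526, edgeR). Ptgs2, the inducible cyclooxygenase that starts prostaglandin synthesis, measured 59.8, 68.7, 282, 274 and 147 CPM untreated and 5.70, 8.76, 21.3, 11.8 and 1.14 CPM after IMQ, a log2 difference of -4.10 ± 0.83. Untreated libraries 1 and 2 were low and IMQ library 5 was the lowest of all. Ces1d, a carboxylesterase, fell by 3.82 and Tgm3, a transglutaminase, by 3.22. Slc37a2, Slc25a33, Vnn3 and Hcar2, a receptor for hydroxybutyrate, fell by 2.54, 2.50, 2.45 and 2.33.

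**Figure D4:**
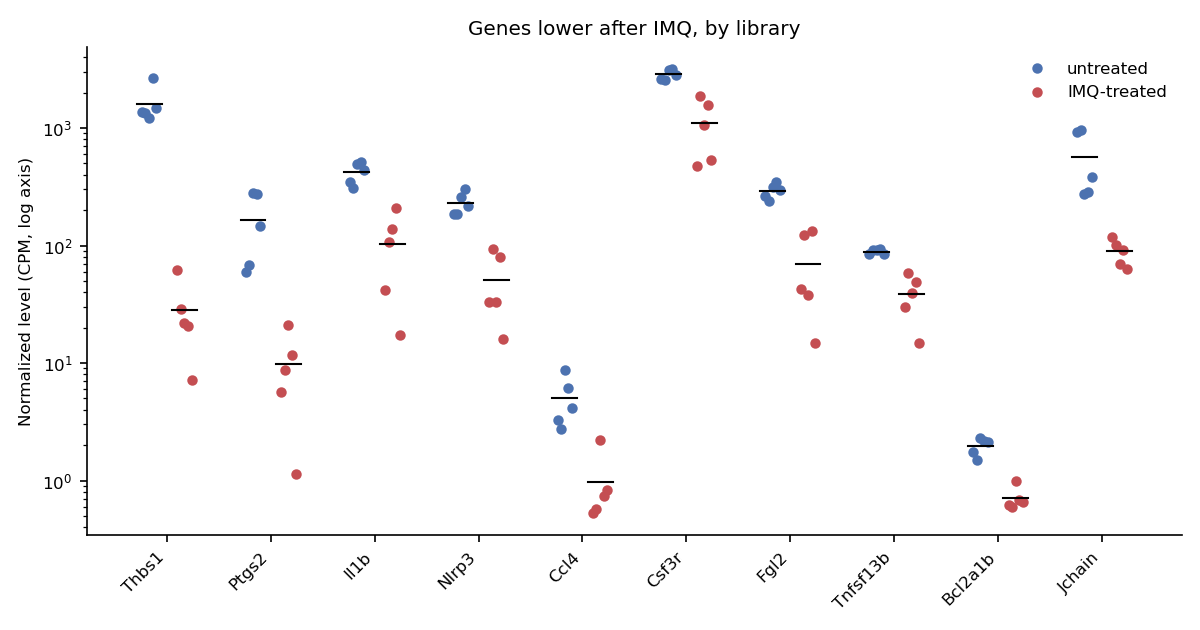
CPM of 10 genes that were lower after IMQ, on a log axis; each point is 1 of 5 libraries a group and each black line a mean. The groups did not overlap for any of the 10 genes, and Thbs1 showed the widest gap, 1213 to 2659 CPM against 7.22 to 62.3 CPM.

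Several genes of inflammatory signaling were lower. Over all genes 23.5% were called, 9.04% lower and 14.4% higher. The share called was 29.4% of interleukin-1 and inflammasome, 45.5% of chemokine, 29.2% of immediate early and 33.3% of NF-kB genes. Among interleukin-1 and inflammasome genes, 17 tested, 3 were lower and 2 higher. Il1b, the cytokine interleukin-1 beta, measured 346, 310, 491, 510 and 437 CPM untreated and 41.6, 108, 138, 211 and 17.4 CPM after IMQ. Nlrp3, an inflammasome sensor, measured 184 to 303 CPM untreated and 16.1 to 94.1 CPM after IMQ. IMQ library 5 was the lowest for both genes and the groups were separate. Nlrp3 fell by 2.16 ± 0.50 and Il1b by 2.02 ± 0.62 (adjusted p = 0.0275, edgeR), and the Il1b call was lost without untreated library 4, IMQ library 1 or IMQ library 5, with adjusted p up to 0.0653. Il1rn, the interleukin-1 receptor antagonist, fell by 1.88. Without IMQ library 4 the number lower was 6. Pycard, the inflammasome adaptor, rose from a mean of 27.8 to 55.7 CPM, and Nlrc4, a sensor of bacterial proteins, rose by 1.97.

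Of 11 chemokine genes, 4 were lower and 1 higher. Ccl4 measured 2.74 to 8.78 CPM untreated and 0.532 to 2.22 CPM after IMQ and fell by 2.35 ± 0.46. Ccl6 fell by 1.64, Cxcl12 by 1.96 and Ccl3 by 1.36, while Ccl9 was higher, at 1.32, a call lost with the replicate block (0.79, adjusted p = 0.122, edgeR). Cxcl12 is made by marrow stroma rather than by neutrophils.

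Immediate early genes, which respond within minutes to stimulation, had 6 of 24 lower and 1 higher. Egr1 measured 153, 189, 691, 971 and 502 CPM untreated and 73.7, 113, 140, 140 and 45.2 CPM after IMQ. Untreated libraries 1 and 2 were close to the IMQ range without overlapping it, and Egr1 fell by 2.29 ± 0.51. Egr2, Dusp2, Junb, Ier5 and Fosl2 fell by 2.03, 1.71, 1.07, 1.01 and 0.88. The number of lower members was 1 without untreated library 4 and 9 with the replicate block. It was 2 without IMQ library 5 and 4 without IMQ library 1. Klf4 was the higher member, at 1.89, and was at 0.63 without IMQ library 1. Its call was also lost with the replicate block (0.85, adjusted p = 0.204, edgeR). Among 18 NF-kB subunits and feedback genes, 5 were lower, Nfkbid, Rela, Tnfaip2, Tnip1 and Nfkbie, by 0.38 to 0.87, and 1, Ikbke, was higher. The number lower was 1 without untreated library 3 and 2 without IMQ library 1, IMQ library 5 or untreated library 4. With IMQ library 1 and untreated library 3 both left out, none of the 5 passed in the edgeR fit.

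An NF-kB motif, searched on both strands as GGGA, then 4 bases of any kind, then CC, lay in 6 of the 22 windows (27.3%) of the lowered members of the interleukin-1, chemokine, TNF family, NF-kB, immediate early and prostaglandin lists, against 22.2% of all tested genes with a window. Il1rn is shown as 1 of the 6, with the match in capitals.
Il1rn (chr2:24336786-24336835, plus strand): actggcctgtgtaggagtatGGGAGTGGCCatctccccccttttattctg
An interferon response motif, searched on both strands as GAAA, then 2 bases of any kind, then GAAA, lay in 2 of the same 22 windows (9.09%) against 2.79% of all.

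Of 24 Toll-like receptor signaling genes, 4 were lower, Tlr2, Tlr5, Ly96 and Irak2, and 2 were higher, Tlr1 and Cd14. Together these are 25.0% of the list, near the 23.5% of all genes called. Tlr1, a partner of Tlr2 in sensing lipopeptides, rose from a mean of 3.33 to 9.44 CPM, and Tlr2 fell from 255 to 111 CPM. No lower member kept its call without IMQ library 1 or without IMQ library 5 in the edgeR fit, whereas 8 were lower with the replicate block. Jak3, a kinase of cytokine receptors, rose by 0.77 ± 0.11, and Socs3, a feedback inhibitor, fell by 1.36, a call lost without IMQ library 1 (adjusted p = 0.0514, edgeR).

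Genes of mature neutrophils had 4 of 24 lower and 3 higher, with a median of -0.58. This is 29.2% called, against 23.5% of all genes. Csf3r, the receptor for granulocyte colony-stimulating factor, measured 2618, 2574, 3092, 3166 and 2814 CPM untreated and 476, 1865, 1058, 1570 and 529 CPM after IMQ. IMQ libraries 1 and 5 were lowest and the groups did not overlap. It fell by 1.38 ± 0.40 (adjusted p = 0.0223, edgeR), a call lost without untreated library 4, IMQ library 1 or IMQ library 5. Fgl2 measured 241 to 345 CPM untreated and 14.8 to 133 CPM after IMQ and fell by 2.06. Ccl6 and Il1b were the other lower members, and Stfa2, Stfa2l1 and Wfdc17 the higher ones, of which Wfdc17 lost its call in 7 of the 10 fits without 1 library. Cxcr2, the receptor that draws neutrophils to the blood, was at -0.89 with an adjusted p of 0.0712 by edgeR, and passed with the replicate block (-1.07, adjusted p = 0.0281) and by DESeq2 (adjusted p = 0.0429). The number of lower members was 1 without untreated library 4, 0 with IMQ library 1 and untreated library 3 both left out, 9 without IMQ library 4 and 10 with the replicate block. The anti-apoptotic paralogs Bcl2a1a, Bcl2a1b and Bcl2a1d fell by 1.86, 1.47 and 1.47, and of the pro-apoptotic members Bid fell by 0.67 while Bak1 and Bax rose by 0.41 and 0.65. The Bax call was lost in 7 of the 10 fits without 1 library, with adjusted p up to 0.159. Bcl2a1b averaged 1.97 CPM untreated and 0.712 CPM after IMQ, with separate groups. The Bcl2a1 copies share reads, so their split is uncertain.

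Of 9 primary granule genes tested, 2 were higher, Ctsc and Serpinb1a, and none was lower, with a median of 0.89. This is 22.2% called, near the 23.5% of all genes. Mpo, myeloperoxidase, measured 244, 179, 302, 192 and 521 CPM untreated and 652, 241, 499, 69.4 and 121 CPM after IMQ. The groups overlapped fully and the log2 difference was 0.14 ± 0.58 (adjusted p = 0.877, edgeR). Ctsg, cathepsin G, measured 14.5 to 38.9 CPM untreated and 93.6, 31.9, 65.0, 12.5 and 26.7 CPM after IMQ (1.04, adjusted p = 0.161). Elane, neutrophil elastase, was at 0.31 and Prtn3, proteinase 3, at 1.09, with adjusted p of 0.692 and 0.162. Of the 7 genes that the study summed as an immature neutrophil score, 5 could be tested and none passed by edgeR or by DESeq2, with 0 at an unadjusted p under 0.05 in edgeR. Defa4 was listed at 0 and Bpi had at most 10 counts in a library. Of 21 secondary and tertiary granule genes, 4 were lower, Olfm4, Chil1, Slpi and Arg2, and none was higher, against 9.04% of all genes lower. The number lower was 1 without IMQ library 1 or IMQ library 5, 2 without untreated library 4 and 7 with the replicate block. The calls of Arg2 and Slpi were each lost in 7 and that of Chil1 in 2 of the 10 fits without 1 library. Ltf, lactoferrin, measured 20216 to 23014 CPM untreated and 13858 to 24302 CPM after IMQ, with overlapping groups and a log2 difference of -0.14 ± 0.21.

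**Figure D5:**
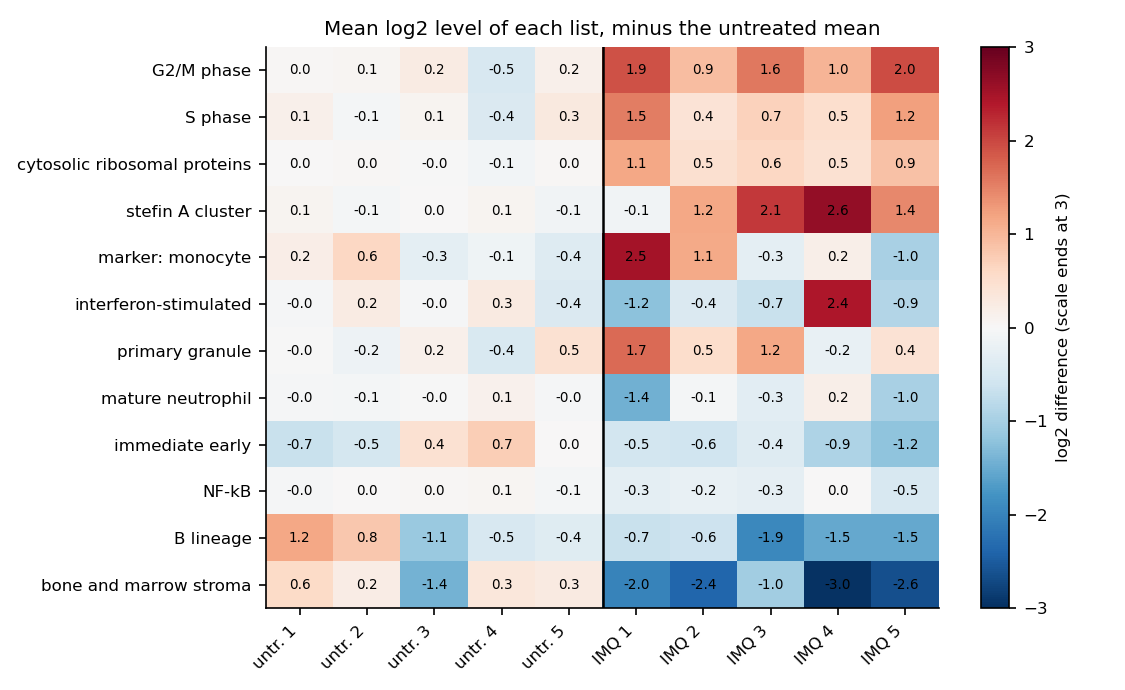
Mean log2 CPM of the tested members of 12 lists in each Bmal1 Mye-/- library, minus the mean of the untreated libraries; columns are libraries and colors run from blue (lower) to red (higher), and the scale ends at 3 in both directions. In every IMQ library the G2/M row lay between 0.93 and 1.96 and the ribosomal row between 0.46 and 1.15, whereas the interferon row was high in IMQ library 4 alone and the monocyte row mainly in IMQ libraries 1 and 2.

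Interferon-stimulated genes varied between IMQ libraries. Of 40, 1 was higher, Oas1g at 2.15, and none was lower, although the median was 0.65. This is 2.5% called, against 23.5% of all genes. Ifit3 measured 22.3, 30.1, 33.2, 51.4 and 20.3 CPM untreated and 1.19, 5.20, 4.95, 433 and 5.22 CPM after IMQ. IMQ library 4 was far above and the other 4 IMQ libraries were below all untreated libraries, so that the log2 difference was 1.51 ± 1.23 with all libraries and -2.90 (adjusted p = 0.0243, edgeR) without library 4. Without that library 8 of the list were lower and none higher. The call of Oas1g was lost without it (0.66), in 7 of the 10 fits without 1 library, and with the replicate block (1.24, adjusted p = 0.165, edgeR), where no member of the list was higher. Of 14 guanylate-binding proteins and immunity-related GTPases and 7 NADPH oxidase genes, none passed by edgeR or by DESeq2 with all libraries, with 1 and 0 at an unadjusted p under 0.05 in edgeR.

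Among other surface receptors, the share called was 29.4% of chemoattractant receptors and 35% of cytokine and growth factor receptors, against 23.5% of all genes. It was 18.75% of C-type lectin and TREM genes and 16.7% of adhesion and surface genes. Of 17 chemoattractant receptor genes, 3 were lower, C5ar2, Ccr1 and Cxcr4, and 2 were higher, among them Ccr2. C5ar2, a receptor for the complement fragment C5a, fell by 1.31, and Cxcr4, which holds neutrophils in the marrow by binding Cxcl12, fell by 0.46 from a mean of 455 to 330 CPM. The Cxcr4 call was lost in 8 of the 10 fits without 1 library. The number lower was 1 without IMQ library 1, untreated library 3 or untreated library 4, and 6 with the replicate block. Of 16 C-type lectin and TREM genes, Clec4d and Clec7a, receptors for fungal surfaces, fell by 1.70 and 1.44, and neither passed without IMQ library 1, IMQ library 5 or untreated library 4. With the replicate block 5 of the list were lower. Of 18 adhesion and surface genes, Itgax, an integrin chain, fell by 2.02 ± 0.42, from a mean of 29.6 to 7.30 CPM with separate groups, and Cd47 and Itgb1 rose. Of 20 cytokine and growth factor receptor genes, 3 were higher and 4 lower. Il3ra, the alpha chain of the interleukin-3 receptor, rose from a mean of 16.7 to 38.5 CPM and kept its call in every fit that left out 1 library. Il6st was at 1.49 and lost its call in 4 of them. The lower members besides Csf3r were Ifnar1, Il10rb and Il17ra, which fell by 0.65, 0.49 and 0.63. The number lower was 1 without IMQ library 1, IMQ library 5 or untreated library 4, and 2 without untreated library 3.

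The share called was 15.8% of class I and immunoproteasome, 10% of class II, 16.7% of endoplasmic reticulum stress and 9.52% of cholesterol synthesis genes. Over all genes it was 23.5%. Of 19 class I and immunoproteasome genes, Erap1, a peptidase that trims peptides, rose by 0.64 and H2-Q10 fell by 1.98. H2-Q4 was higher at 1.17, a call lost with the replicate block (1.01, adjusted p = 0.083, edgeR). Reads of the H2-Q genes may be shared among them. Of 10 class II genes, H2-DMb1 was higher at 1.06, a call lost in 5 of the 10 fits without 1 library, IMQ library 1 among them. No class II gene was lower by edgeR with all libraries, 2 were lower without IMQ library 1 and 2 by DESeq2, and 3 were lower with the replicate block, Cd74 among them (-1.46, adjusted p = 0.0363, edgeR). Of 24 genes of endoplasmic reticulum stress, Dnajb9, Eif2ak3 and Ddit3 fell by 1.24, 0.83 and 0.80, and Trib3 was higher at 2.16, a call lost with the replicate block (1.15, adjusted p = 0.122, edgeR). Of 21 genes of cholesterol synthesis, Fdps was higher at 1.08, a call lost in 7 of the 10 fits without 1 library, and Hsd17b7 fell by 1.00. Ddit3 also lost its call in 5 of those fits.

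Of 18 clock genes, 1 was lower, Per2, a repressor of the loop, which fell by 0.59 ± 0.21 (adjusted p = 0.0488, edgeR), and 9 of the 10 fits that left out 1 library lost this call. The share called was 5.56% of clock genes, against 23.5% of all genes. Nr1d1 was at -0.62 and Clock at 0.62, with adjusted p of 0.0791 and 0.0862 by edgeR.

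Some genes of other marrow cells were also lower. Over all genes 9.04% were lower and 14.4% higher, 23.5% called in both directions. Of 20 B lineage genes tested, 7 were lower and none higher. Vpreb3, a part of the surrogate light chain in B cell precursors, fell by 3.12, and Blk, a kinase of the B cell receptor pathway, by 3.39. Cd79a, a signaling chain of that receptor, fell by 1.12, and Bank1, Spib and Fcrla were also lower. The calls of Cd79a and Fcrla were lost with the replicate block (adjusted p = 0.0818 and 0.0923, edgeR) and in 6 and 8 of the 10 fits without 1 library. The number lower was 3 without untreated library 1, 3 without IMQ library 5 and 3 with the 2 groups fitted alone. Jchain, the joining chain of secreted antibody and a plasma cell marker, measured 929, 961, 275, 284 and 386 CPM untreated and 118, 102, 70.3, 92.1 and 63.2 CPM after IMQ and fell by 2.67 ± 0.62. Untreated libraries 1 and 2 were high, and the groups did not overlap. The 5 plasma cell markers, of which 3 were lower, summed to 409 to 1139 CPM untreated and to 196 to 294 CPM after IMQ. Of 4 T and NK cell markers tested, Cd3d and Cd4 were lower, and the Cd4 call was lost in 5 of the 10 fits without 1 library, with adjusted p up to 0.0838. Of 7 macrophage markers, 7 erythroid markers, 4 dendritic cell markers, 5 megakaryocyte markers and 6 stem and progenitor markers, none passed by edgeR in the fit without a block. With the replicate block 1 macrophage marker was higher, C1qb (1.16, adjusted p = 0.0353, edgeR), and 1 erythroid and 2 megakaryocyte markers were lower. Without the block the numbers at an unadjusted p under 0.05 were, in that order, 1, 2, 0, 2 and 1, and DESeq2 passed 1 erythroid, 1 megakaryocyte and 1 stem and progenitor marker and no macrophage or dendritic cell marker. The globin genes were listed at 0 in all 10 libraries. Of 8 eosinophil markers only Siglecf passed, and it fell by 0.65, while 5 of the 8 were fitted higher, with a list median of 0.87. The 8 summed to 48.8 to 140 CPM untreated and to 43.1 to 207 CPM after IMQ. Among 5 basophil and mast cell markers Ms4a2 was higher, a call lost in 7 of the 10 fits without 1 library. The part of these cells in other changes was not tested.

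The same comparison in WT neutrophils called 554 of 14030 genes, 3.95%. Of these, 344 were also called in Bmal1 Mye-/- neutrophils, 10.4% of the Bmal1 Mye-/- calls and 62.1% of the WT calls, and all 344 had the same direction. Of all 3292 Bmal1 Mye-/- calls, 3173 (96.4%) had the same direction in WT, called there or not, against 71.3% of all genes tested. The treatment effect was not shown to differ between genotypes for any gene: the interaction test in edgeR passed for 0 genes, with 721 at an unadjusted p under 0.05 and a smallest adjusted p of 0.640, and DESeq2 also passed 0. The G2/M list had a median log2 difference of 1.72 in Bmal1 Mye-/- and 1.03 in WT, with 1 member called in WT. Stefin A genes had a median of 1.77 in Bmal1 Mye-/- and 2.81 in WT, with 7 called in WT. Thbs1 fell in Bmal1 Mye-/- from a mean of 1610 to 28.2 CPM, and in WT the means were 1574 and 194 CPM, with a log2 difference of -3.02 (adjusted p = 0.0786, edgeR). The Thbs1 interaction had an unadjusted p of 0.0433 and an adjusted p of 0.640. For Tnfsf13 the log2 difference was 1.34 in Bmal1 Mye-/- and 0.10 in WT. Its interaction had an unadjusted p of 0.0451 (edgeR) and did not pass after adjustment. Lipg, Cd38 and Saa3 were at 3.33, 2.97 and 5.69 in WT, against 3.34, 2.90 and 5.78 in Bmal1 Mye-/- neutrophils, and passed in both genotypes.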

How the data were processed

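Poly(A)+ RNA of marrow neutrophils was sequenced in 20 libraries, 5 in each of 4 groups. The authors deposited raw read counts per gene for each library, 24421 genes, not normalized. The submitters' processing notes name bcl2fastq, STAR 2.7.8a, HTSeq 2.0.1 and build mm10, whereas the study's methods name another aligner and RPKM values; the counts were used as deposited. HTSeq sets aside reads that fit several places, so near-identical genes are undercounted. The annotation and strand setting were not given in the sources used here, so overlapping genes may share reads. Entries that name no gene were left out; counts on genes were 37.4% to 41.9% of the total in the 10 Bmal1 Mye-/- libraries.

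Counts were tested in R 4.3.3 with edgeR 4.0.16 (quasi-likelihood test, TMM factors, filterByExpr, all 20 libraries in 4 groups, Benjamini-Hochberg adjustment, threshold 0.05). CPM are counts scaled to the TMM-adjusted library size, and log2 differences are the fitted IMQ minus untreated values with their SE. The test was checked on simulated data. Its recovery of 4-fold changes fell short of the criterion first set, which was then replaced by one on the centring of estimates, their signs and false calls. Alternatives were DESeq2 1.42.0, other scaling, an analysis of variance on log2(CPM + 0.1), other filters, only the compared groups, thinning, a replicate block and leaving out each library. Residuals of same-numbered Bmal1 Mye-/- libraries correlated at 0.379, 0.426, 0.300, 0.128 and 0.181 for numbers 1 to 5. The same-numbered library was the best match for numbers 1, 2 and 3 but not for 4 and 5. The labels name no pairing. The reported fit had no block, and the replicate number entered as a possible pairing only in the alternatives with a replicate block. No 2 libraries of these groups agreed within sampling noise.

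The comparison and the lists were chosen with earlier results of these data known. Genes named are the 15 largest changes in each direction (mean at least 5 CPM, no overlap), up to 4 of each list by p with the rarer direction, genes fixed by name, and others named after their values were seen, including Rrm2, Blk, Hells, Mcm5, Ckap5, Tlr5, Ltf, Ifit3 and the cell division examples. Positions are from GENCODE (mm10) and promoter sequences from RefSeq, build GRCm38.p6; 252 of 253 named genes had a position. Results for some genes are not reported here.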

Additional observations from a re-analysis of the deposited data

Results flagged for a closer look

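In 13 of 60 groups of 5 libraries checked, 1 library stood apart from the other 4 by Dixon's test. The test's rate of about 1 in 20 holds for independent, normally distributed values. These were CPM of genes shown by library, some chosen after their values were seen, and several moved together. The 13 of 60 therefore cannot be set against that rate. In IMQ library 1, 4 genes were highest: Vcan at 136 CPM (next 39.8), Ctsc at 313 (84.9), Trem2 at 18.1 (4.74) and Ccr2 at 416 (106). In untreated library 4, 3 cell division genes were lowest, Mki67 at 143 CPM (next 220), Top2a at 64.5 (112) and Nusap1 at 13.8 (23.1), and Thbs1 was highest at 2660 (1470). Ifit3 was highest in IMQ library 4 at 433 CPM (5.22) and Saa3 in IMQ library 5 at 17.5 (2.75). IMQ library 3 was highest for Ccl4 at 2.22 CPM (0.829) and Bcl2a1b at 0.994 (0.688), and untreated library 2 for Lipg at 17.6 (9.62). No gene passed the test of a difference in the treatment effect between genotypes.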

How the results depend on the processing

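In Bmal1 Mye-/- neutrophils the numbers of genes higher and lower were within 1.5 times the reported 2024 and 1268 under DESeq2 (2406 and 1784), other scaling, other filters, the analysis of variance, 2 groups alone and thinning, and no called gene took the opposite sign in any alternative. With the replicate block they were 2212 and 1771, and 3040 of the 3292 calls (92.3%) were shared; of 253 named genes, 9 lost and 19 gained a call under the block. Leaving out 1 library gave 1007 to 2576 higher and 605 to 1461 lower genes, and the lowest counts came without untreated library 4 and the highest without IMQ library 2. With IMQ library 1 and untreated library 3 both left out, chosen after seeing the data, they were 1225 and 739. In WT the 554 calls became 1480 with DESeq2, 326 without a filter, 186 with the 2 groups alone and 39 with the 2 groups and a replicate block; the cause was not tested. The interaction count was 0 in every alternative except 1 gene without WT IMQ library 5, and leaving out 1 library gave 0 to 1. Of the 180 called named genes, 102 kept their call in all 21 alternatives and 63 lost it when 1 library was left out. Without normalization factors, also added after seeing the data, the median log2 difference of all genes was 0.16 in place of 0.02. Genes with few counts, such as Saa3, rest on small counts in the group near 0.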

Other observations

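Gene groups that the report does not describe were gathered after the values were seen, so their counts are descriptions. Of 14 genes of bone and marrow stroma, 11 were lower in IMQ-treated Bmal1 Mye-/- neutrophils and none higher, against 9.04% of all genes lower. Ibsp, a bone matrix protein, fell by 2.65, Alpl, the tissue-nonspecific alkaline phosphatase, by 2.23 and Phex, an osteocyte endopeptidase, by 3.10. The list summed to 314 to 1215 CPM in untreated and 99.8 to 535 CPM in IMQ libraries, and 4 members stayed lower without IMQ library 5. Of 35 genes with Col symbols, collagens, 11 were lower and none higher, and Col2a1, the collagen of cartilage, fell by 3.77. The part of stromal cells in these values was not tested.

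Among genes grouped by symbol, 14 of 21 Nup genes, which encode the nuclear pore, were higher and 1, Nup98, was lower. Over all genes 14.4% were higher and 9.04% lower. Of 34 Cep genes, which encode centrosomal proteins, 19 were higher and 1, Cep120, was lower. Cep55, which acts in the last step of cell division, rose by 2.08. Of 34 Kif genes, the kinesin motors, 16 were higher and 2, Kif1c and Kifc2, were lower, and Kif11, the motor that separates spindle poles, rose by 2.01. These lists share genes with the G2/M list, so part of their counts repeats that list.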
